A study of Mus musculus with 8 samples.

Results

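Krüppel-like factors (KLFs) are transcription factors of the zinc finger class, and 8 of their genes were followed here: *Klf2*, *Klf3*, *Klf4*, *Klf6*, *Klf7*, *Klf9*, *Klf10* and *Klf13*. They were taken by symbol from the 30406 genes listed in every library, and the choice was made knowing that *Klf2* had been low in cytokine-treated non-β endocrine cells. The data are single-cell RNA libraries of islets from male C57BL6/J mice of 12 to 16 weeks. Islets of 10 mice were pooled for each of 2 replicates and split over 4 conditions of 18 h each: no treatment, IL-1β (at 10 U/mL) together with IFN-γ (at 150 U/mL), called cytokines here, these cytokines with NMMA (2 mM), and NMMA alone. NMMA blocks nitric oxide synthases and is used to remove the nitric oxide that cytokine-treated β-cells make. Each of the 8 libraries is 1 culture of a pool, the groups differ in treatment alone, and animals within a pool cannot be separated.

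KLF proteins bind GC-rich and CACCC sequences in promoters through the fingers at their C-terminus, and the parts before the fingers recruit activators or corepressors. In vessels *Klf2* and *Klf4* are known as genes that flowing blood turns on and that hold inflammation down. *Klf6* is an early-response gene of injured and inflamed tissues, *Klf9* a target of glucocorticoid and thyroid hormone receptors, and *Klf10* a target of transforming growth factor-β (TGF-β). *Klf3* is mainly a repressor that works through C-terminal binding proteins, *Klf7* is best known from neurons, and *Klf13* from lymphocytes.

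The 8 genes lie on 8 different chromosomes, all of them annotated as protein-coding (GENCODE M21, build GRCm38). *Klf2* (ENSMUSG00000055148) is at chr8:72319033-72321656 on the plus strand, *Klf3* (ENSMUSG00000029178) at chr5:64803388-64832901 on the plus strand and *Klf4* (ENSMUSG00000003032) at chr4:55527143-55532466 on the minus strand. *Klf6* (ENSMUSG00000000078) is at chr13:5861482-5870394 on the plus strand and *Klf7* (ENSMUSG00000025959) at chr1:64029447-64122282 on the minus strand. *Klf9* (ENSMUSG00000033863) is at chr19:23141226-23168134 on the plus strand, *Klf10* (ENSMUSG00000037465) at chr15:38291463-38300706 on the minus strand and *Klf13* (ENSMUSG00000052040) at chr7:63886351-63938915 on the minus strand.

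The promoters of *Klf2* and *Klf6* are shown because these genes carry the strongest patterns: *Klf2* had its highest levels in endothelial and mesenchymal cells, and *Klf6* changed with cytokines in most classes. The stretches end just before the annotated gene, at chr8:72318812-72319032 and chr13:5861239-5861481, both on the plus strand (RefSeq promoters, GRCm38.p6). Capitals mark the GC box GGGCGG in both and, in *Klf2*, the consensus of the MEF2 factors.
Klf2: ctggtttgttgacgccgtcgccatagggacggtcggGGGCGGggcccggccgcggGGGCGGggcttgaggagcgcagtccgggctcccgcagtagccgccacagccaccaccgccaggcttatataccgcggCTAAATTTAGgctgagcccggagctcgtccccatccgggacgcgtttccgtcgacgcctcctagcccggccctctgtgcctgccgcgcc
Klf6: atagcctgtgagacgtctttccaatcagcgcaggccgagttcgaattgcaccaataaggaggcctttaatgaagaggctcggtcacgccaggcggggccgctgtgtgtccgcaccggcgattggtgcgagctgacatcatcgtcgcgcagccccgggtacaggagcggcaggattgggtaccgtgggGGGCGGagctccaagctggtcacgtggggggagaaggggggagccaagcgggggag
The MEF2 consensus of *Klf2* starts 118 bases before the RefSeq start and reads CTAAATTTAG, the same on both strands.

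Motifs were searched on both strands of the promoters from 250 bases before to 50 after the RefSeq start, which were given for 7 of the 8 members (not *Klf10*). The GC box was in 6 of these 7 (all but *Klf9*) and in 35.7% of 32851 promoters. CACCC, a site that KLF proteins themselves bind, was in 5 of 7 and in 57.5% of all promoters, and the cyclic AMP response half-site TGACG was in 5 of 7 and in 20.8%. The MEF2 consensus was in *Klf2* alone and in 3.19% of all promoters. The κB consensus (4.51% of all promoters), the interferon-stimulated response element, a spaced pair of GAAA (3.44%), the serum response consensus (1.63%), the glucocorticoid half-site AGAACA (19.0%) and TATAAA (13.6%) were in none of the 7. In *Klf4* 2 GC boxes share a base, in *Klf3* and *Klf13* a GC box shares a base with a CACCC, and the MEF2 match is found on both strands at the same place.

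The 8 libraries held 26549922 to 50731370 UMIs (unique molecular identifiers, 1 for each counted RNA molecule), and 10876 of 17426 barcodes passed the filters. Cells were clustered and named from marker genes: 6339 β-cells (450 to 1664 in a library), 667 α-cells (49 to 108), 326 δ-cells (8 to 87), 324 macrophages, 283 endothelial cells (14 to 52) and 215 mesenchymal cells. The summed endothelial markers were at 6216 to 12874 counts per 1000000 UMIs (CPM) in endothelial cells and at 2.12 to 7.28 in β-cells. Libraries shared 0 to 5 barcodes in a pair. Only 8 δ-cells were found with cytokines in replicate 1. Values in CPM are UMIs of a class summed in each library and scaled within the class by TMM (trimmed mean of M values), with replicates 1 and 2 in this order, unless given as CPM of all UMIs of the class, with no TMM. UMIs mark the 3′ end of RNA and are not divided by gene length.

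In untreated islets 6 of the 8 members had their highest mean in endothelial cells (CPM of all UMIs of the class, mean ± SD, n = 2). *Klf7* was at 281 ± 82.8, *Klf13* at 237 ± 17.5, *Klf3* at 183 ± 11.7, *Klf4* at 129 ± 13.3, *Klf2* at 105 ± 36.5 and *Klf10* at 54.4 ± 11.0 in endothelial cells. Next to these stood mesenchymal cells for *Klf7* (93.1 ± 17.6) and *Klf2* (68.3 ± 49.1), macrophages for *Klf13* (110 ± 3.69) and *Klf10* (37.8 ± 2.23), δ-cells for *Klf3* (52.0 ± 7.99) and α-cells for *Klf4* (44.8 ± 16.7). The endothelial libraries lay above both libraries of every other class for *Klf3*, *Klf4*, *Klf7*, *Klf10* and *Klf13*. For *Klf2* they overlapped with the mesenchymal libraries.

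*Klf6* followed another order, with mesenchymal cells at 204 ± 117, macrophages at 189 ± 11.1 and endothelial cells at 159 ± 12.2, which did not differ beyond the mesenchymal spread. Endocrine cells were lower and stood apart from each other, with α-cells at 50.6 ± 1.66, δ-cells at 30.1 ± 2.79 and β-cells at 12.6 ± 2.69. *Klf9* was lowest in macrophages: mesenchymal cells were at 158 ± 0.291, endothelial cells at 142 ± 38.8, α-cells at 85.0 ± 4.48, β-cells at 80.5 ± 12.9 and δ-cells at 73.9 ± 4.81, while macrophages held 2.80 ± 0.0184. For *Klf9* the α-cell libraries (88.2 and 81.9) lay above the δ-cell ones (70.5 and 77.3), and the β-cell libraries (71.3 and 89.6) overlapped with both. Hormone RNA takes much of the UMIs of endocrine cells, and with the hormone genes left out of the total (chosen after seeing the data) *Klf9* in β-cells was at 149 ± 18.1, between mesenchymal (163 ± 4.97) and endothelial cells (143 ± 39.0). The same step left endothelial cells highest for the 6 members named above.

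**Figure D1:**
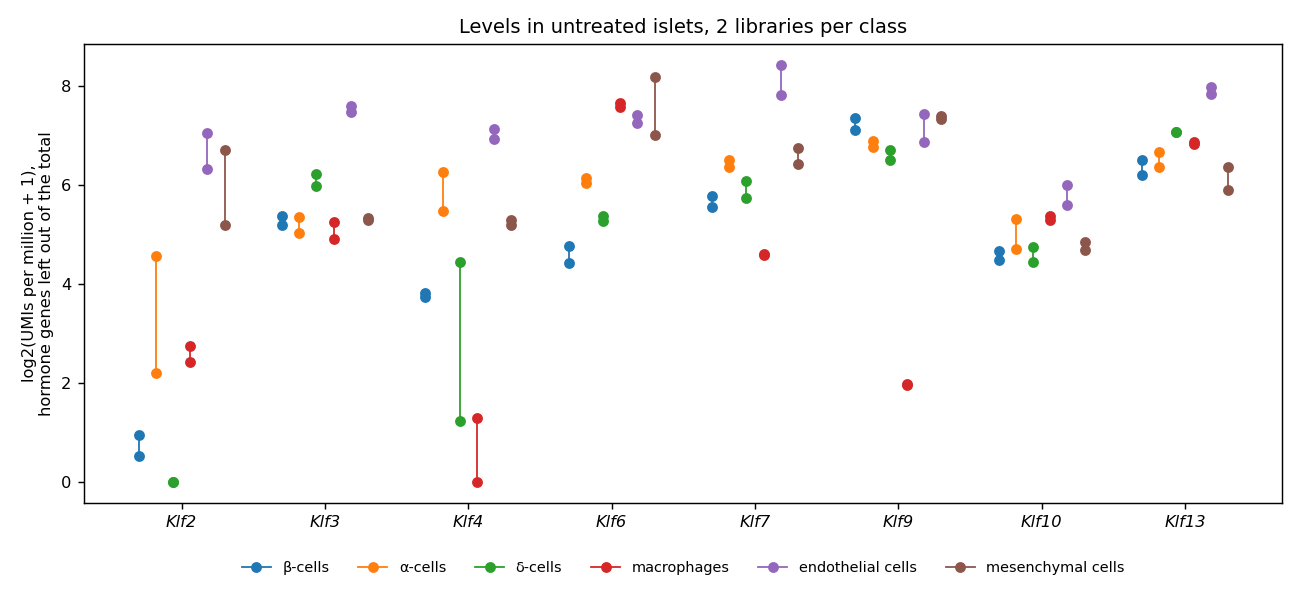
Levels of the 8 members in untreated islets as log2(CPM + 1), with the islet hormone genes left out of the total, for 6 cell classes. Each point is 1 library and a line joins the 2 libraries of a class. Endothelial cells are highest for 6 members, *Klf6* is shared by mesenchymal cells, macrophages and endothelial cells, *Klf9* is lowest in macrophages, and *Klf2* is lowest in β- and δ-cells.

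In β-cells cytokines raised 4 of the 7 members that could be tested, *Klf3*, *Klf6*, *Klf7* and *Klf10*, and lowered none (edgeR quasi-likelihood, Benjamini-Hochberg adjusted p under 0.05 over 12775 genes). In the same comparison 46.2% of all genes were called, 23.8% as higher. The median log2 change of the 7 members was 0.59 and that of all genes 0.00. *Klf2* did not pass the filter on low counts in β-cells.

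*Klf6* showed the largest change of the 7 members. It was at 10.5 and 13.7 CPM in untreated β-cells, at 60.2 and 61.5 with cytokines, at 42.5 and 45.3 with cytokines and NMMA, and at 15.2 and 20.2 with NMMA alone. Both cytokine conditions lay above both conditions without cytokines. The log2 change with cytokines was 2.34 (SE 0.18, adjusted p = 2.1e-05) and that with cytokines and NMMA against untreated 1.87 (SE 0.18, adjusted p = 9.7e-05). NMMA with cytokines gave a level lower by a log2 of -0.47 than cytokines alone (SE 0.17, adjusted p = 0.079), while a fit with a term for the replicate (a block) gave the same difference an adjusted p of 0.0017. With the block NMMA alone was also higher than untreated, by 0.56 (adjusted p = 0.018), where 3.55% of all genes were called, against an adjusted p of 0.52 without it.

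*Klf3*, the CtBP-binding repressor, was at 18.3 and 21.2 CPM untreated, 40.2 and 34.0 with cytokines, 24.7 and 24.2 with cytokines and NMMA, and 22.9 and 24.9 with NMMA. The cytokine libraries stood above all others. Its log2 change with cytokines was 0.92 (SE 0.14, adjusted p = 0.00079), and cytokines with NMMA were lower than cytokines by -0.60 (SE 0.14, adjusted p = 0.018). This second call of *Klf3* was lost without cytokines replicate 1 (-0.48, adjusted p = 0.11) or without the library with cytokines and NMMA of replicate 1 (adjusted p = 0.074) or replicate 2 (0.087). It was also lost among barcodes with at least 1000 genes (-0.53, adjusted p = 0.12) and with scaling by total UMIs (-0.39, adjusted p = 0.10).

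*Klf10*, the TGF-β-inducible member, was at 11.0 and 12.6 CPM untreated, 18.9 and 30.2 with cytokines, 14.2 and 18.2 with cytokines and NMMA, and 13.0 and 15.2 with NMMA. The cytokine libraries were the highest, and replicate 2 lay above replicate 1 in each condition. The log2 change with cytokines was 1.05 (SE 0.23, adjusted p = 0.0056), and that of cytokines with NMMA against cytokines -0.59 (SE 0.23, adjusted p = 0.10; with the replicate block -0.57 and 0.0017).

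*Klf7* was at 27.7 and 23.9 CPM untreated, 38.3 and 39.7 with cytokines, 31.3 and 35.1 with cytokines and NMMA, and 29.5 and 34.5 with NMMA. The difference between cytokine and untreated libraries was small but larger than their spread. Its log2 change was 0.59 (SE 0.14, adjusted p = 0.0069), and without untreated replicate 2 it was 0.49 with an adjusted p of 0.053. Scaled by total UMIs in place of TMM it was 0.37 with an adjusted p of 0.073, and among barcodes with at least 1000 genes 0.36 with an adjusted p of 0.19.

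*Klf4* and *Klf9* had their extreme means with the combination of cytokines and NMMA. *Klf4* was at 6.72 and 6.47 CPM untreated, 7.13 and 11.7 with cytokines, 14.2 and 14.6 with cytokines and NMMA, and 9.65 and 5.61 with NMMA. The 2 libraries with cytokines and NMMA were the highest. Their log2 change against untreated was 1.13 (SE 0.28, adjusted p = 0.021), the change with cytokines alone was 0.50 (adjusted p = 0.18), and the difference between the treatments was 0.63 (adjusted p = 0.15). The call of *Klf4* was lost when either untreated library or either library with cytokines and NMMA was left out (adjusted p of 0.077 to 0.11), and among barcodes with at least 1000 genes (0.085).

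*Klf9* was at 69.8 and 84.4 CPM untreated, 64.3 and 95.7 with cytokines, 40.6 and 57.9 with cytokines and NMMA, and 63.2 and 80.0 with NMMA. Replicate 2 lay above replicate 1 in each of the 4 conditions, and the lowest values of both replicates were those with cytokines and NMMA. The log2 change of cytokines with NMMA was -0.65 against untreated (SE 0.24, adjusted p = 0.087) and -0.70 against cytokines (SE 0.24, adjusted p = 0.073). With the replicate block these were -0.67 (adjusted p = 2.9e-05) and -0.69 (adjusted p = 3.1e-05). *Klf13*, at 38.0 to 56.0 CPM over the 8 libraries, had a log2 change of 0.12 with cytokines (adjusted p = 0.51) and of 0.36 with cytokines and NMMA (adjusted p = 0.087; with the block 0.0094).

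For cytokines with NMMA against untreated 2 of 7 members were called, both higher (*Klf4* and *Klf6*), where 22.7% of all genes were called and 12.9% as higher. With the replicate block all 7 tested members were called, 6 higher and *Klf9* lower, where 40.9% of all genes were called. For cytokines with NMMA against cytokines 1 of 7 was called, *Klf3* as lower, where 19.4% of all genes were called and 9.05% as lower. The replicate block called 4 as lower there, where it called 40.8% of all genes: *Klf3* (-0.61, adjusted p = 0.0004), *Klf6*, *Klf9* and *Klf10*. NMMA alone against untreated gave 0 calls among the members and 0% among all genes. With the replicate block *Klf6* was called as higher there (0.56, adjusted p = 0.018), where 3.55% of all genes were called.

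**Figure D2:**
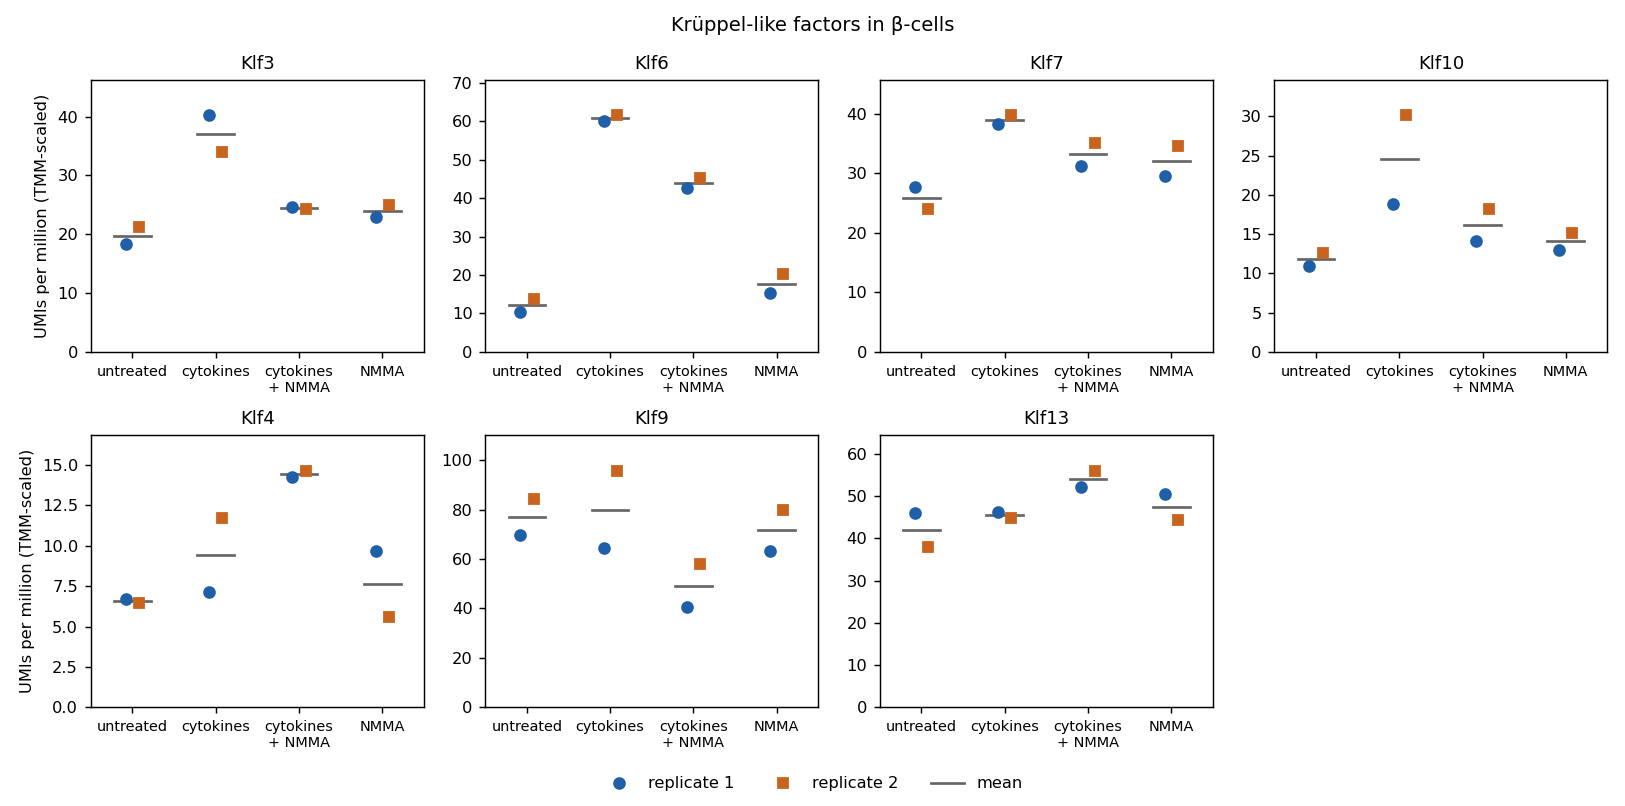
The 7 tested members in β-cells as CPM (TMM-scaled, axes from 0), 1 point per library with replicates by shape and colour and a line at the mean of 2. *Klf3*, *Klf6*, *Klf7* and *Klf10* are highest with cytokines, *Klf4* is highest and *Klf9* lowest with cytokines and NMMA, and *Klf13* lies between 38.0 and 56.0.

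Summed β-cell markers, insulin RNA for the most part, were at 442551 to 474344 CPM in untreated β-cells and at 397302 to 406828 with cytokines, and small changes of other genes depend on the scaling. Scaling by total UMIs in place of TMM moved the median log2 change of all genes by cytokines to -0.22 and the share of calls that were higher from 51.5% to 33.3%. For cytokines with NMMA against cytokines it moved this median to 0.23 and the share of higher calls from 53.5% to 85.4%. On that scale *Klf3*, *Klf6* and *Klf10* were called with cytokines, where 46.3% of all genes were called. For cytokines with NMMA against cytokines *Klf4* (0.84, adjusted p = 0.046) and *Klf13* (0.46, adjusted p = 0.033) were then called as higher, where 21.7% of all genes were called, while *Klf3* had -0.39 with an adjusted p of 0.10.

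Sums of marker lists of other classes also moved in β-cells. The 11 macrophage markers, of which 7 to 11 were detected in a library, summed to 48.4 to 72.4 CPM untreated, 70.1 to 125 with cytokines, 92.9 to 191 with cytokines and NMMA and 38.7 to 45.7 with NMMA, and *Adgre1* was at 0 in 7 of 8 libraries. The 7 ductal markers summed to 266 to 319 untreated, 802 to 969 with cytokines, 669 to 804 with cytokines and NMMA and 307 to 351 with NMMA. The ductal list was also at 2006 to 2654 CPM in untreated α-cells. The part of both lists in the member values was not tested.

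A β-cell cluster led by heat shock genes (591 cells, 21 to 146 in a library) held more *Klf6* than the other β-cells in 8 of 8 libraries. This is a description, since the cluster was made from the same cells. *Klf6* was at 86.9 and 47.3 CPM of all UMIs in this cluster and 10.1 and 10.1 in the other β-cells untreated, 64.3 and 94.2 against 53.1 and 49.1 with cytokines, 197 and 93.5 against 34.4 and 42.1 with cytokines and NMMA, and 126 and 57.4 against 10.7 and 13.9 with NMMA. In the other β-cells, too, both cytokine libraries were above both untreated ones. *Klf4* was higher in the cluster in 7 of 8 libraries and *Klf9* in 6, while *Klf3* was higher in 1, *Klf7* in 2, *Klf10* in 0 and *Klf13* in 1. With this cluster left out (chosen after seeing the data) the log2 change of *Klf6* with cytokines was 2.55 (SE 0.14, adjusted p = 3.6e-06). Cytokines with NMMA against cytokines then gave -0.66 for *Klf6* (adjusted p = 0.010) and -0.81 for *Klf9* (adjusted p = 0.037), and 3 members were called as lower in place of 1, where 21.6% of all genes were called.

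**Figure D3:**
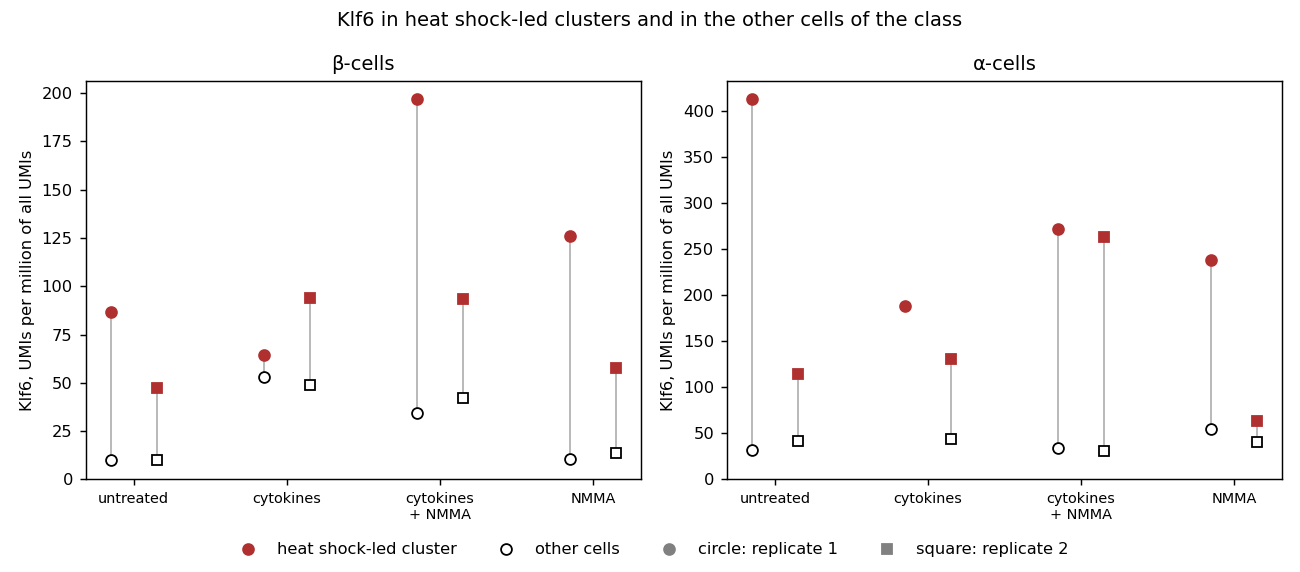
*Klf6* as CPM of all UMIs in the heat shock-led cluster (filled) and in the other cells of the class (open), for β-cells on the left and α-cells on the right, with circles for replicate 1 and squares for replicate 2. A line joins the values of a library. The filled points are above the open ones in 8 of 8 β-cell libraries, and with cytokines in replicate 1 all 49 α-cells were in the heat shock-led sub-cluster, so no open point is drawn.

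In macrophages *Klf6* was the only member called. *Klf6* was at 194 and 184 CPM untreated, 401 and 397 with cytokines, 362 and 299 with cytokines and NMMA, and 188 and 185 with NMMA. Both cytokine conditions stood above the others, with replicates close together. The log2 change with cytokines was 1.08 (SE 0.23, adjusted p = 0.012) and with cytokines and NMMA 0.80 (SE 0.23, adjusted p = 0.049). This is 1 of 5 tested members in each comparison, where 4.62% and 6.46% of 5156 genes were called (higher, 3.82% and 5.16%). The first call was lost without untreated replicate 1 (adjusted p = 0.064), untreated replicate 2 (0.10) or cytokines replicate 1 (0.052), and the second without any single library and with DESeq2.

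*Klf7* was at 22.2 and 22.7 CPM in untreated macrophages, 9.01 and 11.6 with cytokines, 32.4 and 24.3 with cytokines and NMMA, and 17.6 and 42.5 with NMMA. The cytokine libraries were the lowest, yet the log2 change of -1.12 had an SE of 0.63 (adjusted p = 0.44). *Klf3*, *Klf10* and *Klf13* had log2 changes between -0.31 and 0.29 with cytokines and adjusted p of 0.78 to 0.92. *Klf2*, *Klf4* and *Klf9* held 0 to 3 UMIs in most macrophage libraries and were not tested. The macrophages formed 2 clusters, and the smaller held 23 and 22 cells with cytokines, 22 and 37 with cytokines and NMMA and 0 and 1 untreated. The larger held 38 and 71 untreated cells, 10 and 14 with cytokines and 6 and 7 with cytokines and NMMA. Cluster and treatment thus overlapped in part, and the part of the smaller cluster in the *Klf6* change was not tested. The 8 β-cell markers in macrophages summed to 18540 to 43545 CPM untreated and 26483 to 55044 with NMMA, all 8 detected, and to 2280 to 6747 with cytokines and 3920 to 4176 with cytokines and NMMA, 3 to 5 detected, with *Slc2a2*, *Ucn3* and *Mafa* at 0 in these 4 libraries. Their part in the macrophage values was not tested.

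In endothelial cells *Klf6* rose as well. It was at 145 and 162 CPM untreated, 427 and 476 with cytokines, 430.1 and 483 with cytokines and NMMA, and 149.6 and 189 with NMMA. The groups with and without cytokines did not overlap, and cytokines with NMMA differed from cytokines by 0.02 on the log2 scale (SE 0.23, adjusted p = 1.0). The log2 change with cytokines was 1.56 (SE 0.24, adjusted p = 0.00026) and with cytokines and NMMA 1.58 (SE 0.23, adjusted p = 0.00021). Of the 8 members 1 was called in each comparison, where 6.33% and 6.64% of 7505 genes were called (higher, 4.58% and 5.02%).

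*Klf2*, whose product keeps endothelium quiescent, was at 125 and 76.0 CPM in untreated endothelial cells, 218 and 149 with cytokines, 220.2 and 134 with cytokines and NMMA, and 274 and 156 with NMMA (43 to 172 UMIs in a library). Replicate 1 was above replicate 2 in each condition, and the untreated library was the lowest of each replicate. The log2 change was 0.86 with cytokines (SE 0.36, adjusted p = 0.24), 0.78 with cytokines and NMMA (SE 0.36, adjusted p = 0.30) and 1.11 with NMMA (SE 0.34, unadjusted p = 0.0061, adjusted p = 1.0). With the replicate block *Klf2* was called as higher with cytokines (0.89, adjusted p = 0.0097) and with cytokines and NMMA (0.81, adjusted p = 0.018), where it called 10.4% and 10.1% of all genes. NMMA alone gave 1.09 with the block (adjusted p = 0.058). Each endothelial library with cytokines thus held more *Klf2* than the untreated library of its replicate, and so did each with NMMA alone.

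*Klf4* in endothelial cells was at 133 and 115 CPM untreated, 198 and 178 with cytokines, 113 and 95.2 with cytokines and NMMA, and 154 and 102 with NMMA. The cytokine libraries were the highest. The log2 change with cytokines was 0.59 (SE 0.27, adjusted p = 0.26), and cytokines with NMMA were lower than cytokines by -0.87 (SE 0.29, unadjusted p = 0.0078, adjusted p = 0.78). The other 5 members had log2 changes between -0.34 and 0.10 with cytokines, with the lowest adjusted p at 0.59. Endothelial cells also formed 2 clusters: 1 of 198 cells held 47 and 50 untreated cells and 1 and 0 cytokine-treated ones, and the other, of 85 cells, held 14 and 23 with cytokines and 14 and 34 with cytokines and NMMA. Cluster and treatment cannot be told apart here. Clustering at resolution 2 set apart 68 cells that scored as endothelial but had the mesenchymal markers *Rgs5* and *Pdgfrb* among their leading genes. They were left unnamed and held 19 and 16 untreated cells, 14 and 19 with NMMA and 0 in the 4 libraries with cytokines. *Klf6* was still called with that clustering in both comparisons with untreated. The part of these cells in the untreated levels was not tested.

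Sums of marker lists of other classes moved in endothelial cells as well. The 9 mesenchymal markers, of which 4 to 8 were detected in a library, summed to 2877 to 4114 CPM untreated, 1435 to 1758 with cytokines, 1437 to 2101 with cytokines and NMMA and 2889 to 2942 with NMMA, and *Pdgfra* was at 0 in all 8 libraries. The 11 macrophage markers summed to 7.29 to 14.0 untreated, 2.57 to 4.66 with cytokines and 1.85 to 13.8 with NMMA, 1 to 4 detected in a library. With cytokines and NMMA they were at 1454 in replicate 1 (11 detected) and 15.8 in replicate 2 (5 detected). Without that library of replicate 1 the log2 change of *Klf6* with cytokines and NMMA was 1.69 (SE 0.28, adjusted p = 0.00074). The part of the mesenchymal markers was not tested.

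In mesenchymal cells 0 of 8 members were called with cytokines or with cytokines and NMMA (edgeR and DESeq2), where 1.8% and 1.97% of 5267 genes were called, and none had an unadjusted p under 0.05. *Klf6* was at 123 and 276 CPM untreated, 199 and 164 with cytokines, 271 and 147 with cytokines and NMMA, and 129 and 81.0 with NMMA. The replicates of a condition differed more than the conditions did. *Klf2* was at 34.2 and 99.2 CPM untreated (10 and 41 UMIs), 0 and 22.3 with cytokines (0 and 6 UMIs), 43.3 and 0 with cytokines and NMMA (8 and 0 UMIs), and 30.9 and 26.1 with NMMA (6 and 19 UMIs). The cytokine libraries were below both untreated ones, but the log2 change of -2.25 had an SE of 1.25 (adjusted p = 0.71). With 12 to 50 cells in a library, only large changes could be seen in this class.

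The size of the cytokine change was compared with that in β-cells by an interaction test over the libraries. The change of *Klf6* was smaller in macrophages than in β-cells, by -1.28 on the log2 scale (SE 0.31, adjusted p = 0.0016), and smaller in mesenchymal cells, by -2.41 (SE 0.45, adjusted p = 3.2e-05). The difference for endothelial cells was -0.63 (SE 0.27, adjusted p = 0.17). *Klf3* in endothelial cells differed from β-cells by -0.96 (SE 0.29, adjusted p = 0.022). These are 1 of 8 members for each class, where 6.04%, 6.29% and 1.68% of genes differed for macrophages, endothelial and mesenchymal cells, and the medians of all genes were -0.35, -0.04 and -0.19. DESeq2 called 0 members for macrophages and for endothelial cells. Without untreated replicate 2 the mesenchymal and endothelial calls were lost. Without untreated replicate 1 or cytokines replicate 1 the macrophage call was lost, as was that of *Klf3* for endothelial cells. These fits had 1 library in a group, and fewer of all genes were called in them as well. Among barcodes with at least 1000 genes *Klf3* was not called for endothelial cells (-0.79, adjusted p = 0.14), and *Klf6* was (-0.88, adjusted p = 0.049).

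**Figure D4:**
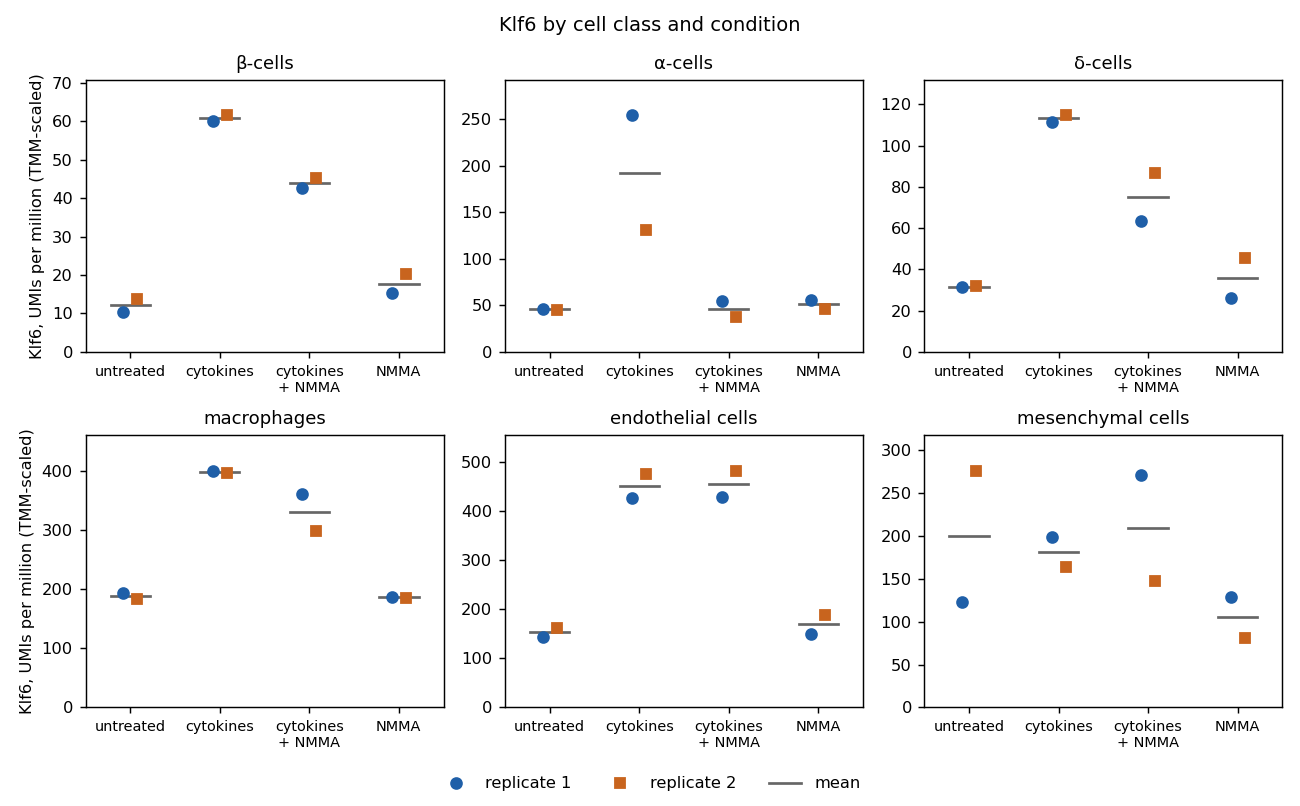
*Klf6* as CPM (TMM-scaled within a class, axes from 0 and different between panels) in 6 cell classes and 4 conditions, 1 point per library and a line at the mean. *Klf6* is high with cytokines in β-, α- and δ-cells, macrophages and endothelial cells and overlaps between conditions in mesenchymal cells. With NMMA added the level summed over all α-cells is near that of untreated cells, 54.7 and 38.0 against 45.7 and 45.4, while the endothelial level is not. Of these α-cells with cytokines and NMMA 11 of 98 and 3 of 90 are in the heat shock-led sub-cluster. The δ-cell points with cytokines hold 8 and 11 cells.

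The values of α- and δ-cells are given as a description with no test, since these cells led to the choice of the genes. *Klf2* in α-cells was at 14.99 and 2.52 CPM untreated (21 and 5 UMIs), 0 and 0.821 with cytokines (0 and 1 UMIs), 11.6 and 4.99 with cytokines and NMMA (21 and 10 UMIs), and 4.19 and 7.35 with NMMA (4 and 13 UMIs). The cytokine libraries are the lowest, and the other 6 overlap with each other. As CPM of all UMIs, the exact 95% Poisson intervals were 10.5 to 26.0 and 0.888 to 6.38 untreated and 0 to 4.31 and 0.0175 to 3.86 with cytokines, which cover counting error only. The intervals of replicate 2 overlap. Single cells held much of these UMIs: 1 α-cell of untreated replicate 1 had 10 of the 21, 1 of cytokines with NMMA replicate 2 had 8 of the 10, and 1 of cytokines with NMMA replicate 1 had 6 of the 21. With the highest cell of each library left out, 11 and 4 UMIs remained untreated, 0 and 0 with cytokines, 15 and 2 with cytokines and NMMA, and 3 and 10 with NMMA. The 2 UMIs left with cytokines and NMMA in replicate 2 are close to those with cytokines. For the empty sum with cytokines in replicate 1, 3 counts, a 1-sided limit for a count of 0, correspond to 3.51 CPM. The interval above, which is 2-sided, reaches 4.31.

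Of 667 α-cells 36 held a *Klf2* UMI: 5 and 5 untreated, 0 and 1 with cytokines, 10 and 3 with cytokines and NMMA, and 4 and 8 with NMMA. In β-cells 30 of 6339 did, at a higher depth (medians of 20432 to 29846 UMIs per cell, against 12219.5 to 19626.5 in α-cells), and in δ-cells 2 of 326. Thinned to 9000 UMIs in each α-cell the share was 0% to 8.14% over the libraries, and in β-cells thinned to 9500 UMIs 0% to 0.271%. Of the 36 α-cells with *Klf2* 1 held at least 2 of the 9 endothelial markers (2.78%), and of the 631 α-cells without *Klf2* 10 did (1.58%). With the cells of at least 2 such markers left out, 21 and 5 *Klf2* UMIs remained untreated and 0 and 1 with cytokines. With cytokines and NMMA 21 and 10 remained, and with NMMA 3 and 13. Summed endothelial markers in α-cells were at 11.0 to 13.8 CPM untreated, 3.48 to 4.68 with cytokines, 14.6 to 15.2 with cytokines and NMMA and 9.11 to 15.5 with NMMA, and so were lowest with cytokines, as *Klf2* was. Of the 9 markers 3 to 5 were detected in a library, and *Emcn* was at 0 in all 8. The α-cell level of *Klf2* was 13.0% and 3.49% of the endothelial level untreated, where that of the markers was 0.109% and 0.102%, and with cytokines it was 0% and 0.521%, where that of the markers was 0.0502% and 0.0557%. The part of free endothelial RNA in the difference between conditions was not tested.

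In δ-cells *Klf2* had 0 UMIs in all libraries but those of NMMA alone, which held 1 each. Because untreated δ-cells held none, which allows up to 3.20 and 4.20 CPM, no fall with cytokines could be seen in this class. In β-cells *Klf2* had 8 and 8 UMIs untreated, 9 and 0 with cytokines, 5 and 0 with cytokines and NMMA and 12 and 1 with NMMA. These are levels of 0 to 0.616 CPM with no order by condition.

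**Figure D5:**
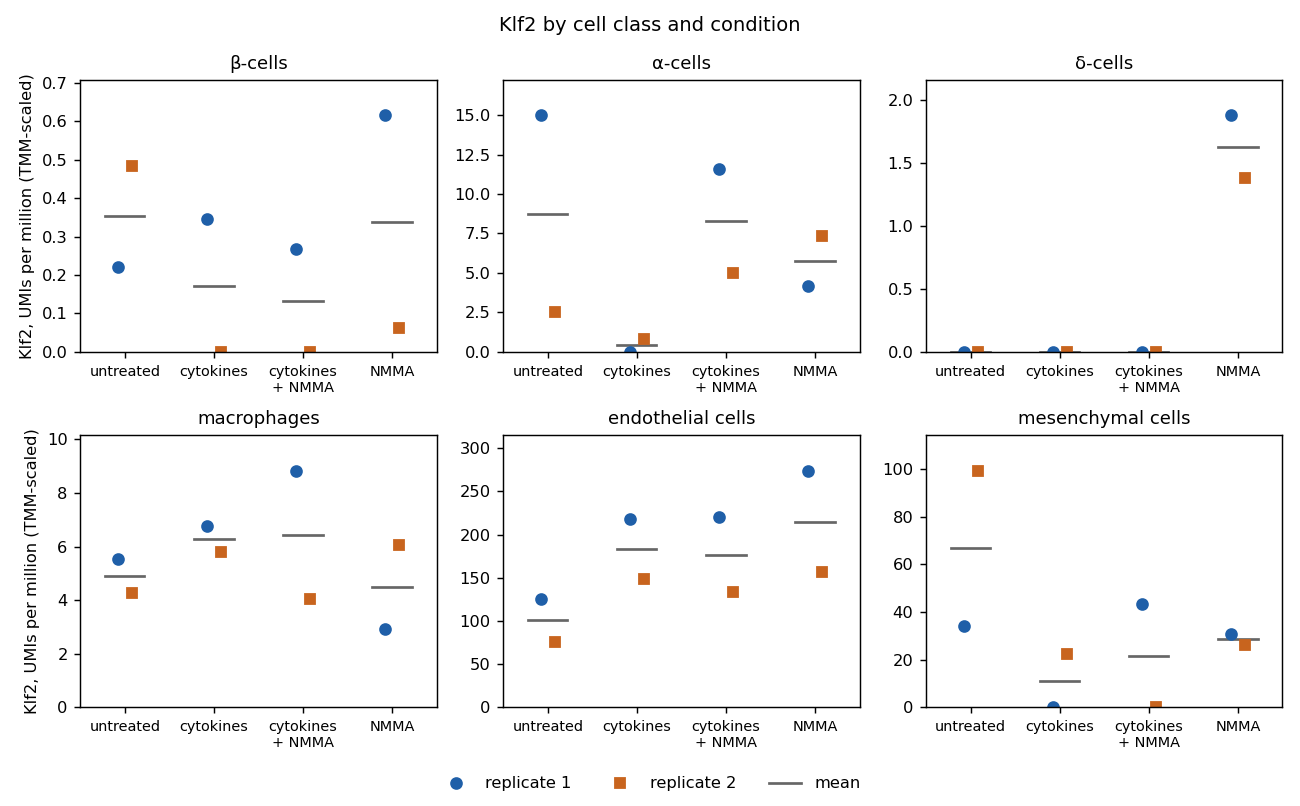
*Klf2* as CPM (TMM-scaled within a class, axes from 0 and different between panels) in 6 cell classes and 4 conditions, 1 point per library and a line at the mean. In α-cells both cytokine libraries, at 0 and 0.821, lie under the other 6. In endothelial cells, on an axis that reaches far higher, the untreated library is the lowest of each replicate, and δ-cells are at 0 outside NMMA alone.

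*Klf6* in α-cells was at 45.7 and 45.4 CPM untreated, 254 and 130.5 with cytokines, 54.7 and 38.0 with cytokines and NMMA, and 55.5 and 46.4 with NMMA. Only the cytokine libraries stood apart. In δ-cells *Klf6* was at 31.3 and 31.9 untreated, 112 and 115 with cytokines (8 and 11 cells), 63.3 and 86.7 with cytokines and NMMA and 26.3 and 45.5 with NMMA, where cytokines with NMMA lay between untreated and cytokines. *Klf10* in α-cells was at 25.7 and 17.7 untreated, 55.2 and 55.0 with cytokines, 18.2 and 22.5 with cytokines and NMMA, and 28.3 and 17.0 with NMMA, again apart with cytokines alone.

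Of the remaining members in α-cells, *Klf9* was at 77.8 and 75.2 CPM untreated, 90.0 and 87.8 with cytokines, 50.3 and 49.9 with cytokines and NMMA, and 74.4 and 65.0 with NMMA. As in β-cells, its lowest values were those with cytokines and NMMA. Over the 8 libraries *Klf13* was at 54.9 to 81.2, *Klf7* at 52.1 to 79.2, *Klf4* at 29.99 to 79.6 and *Klf3* at 18.5 to 34.6. On this TMM scale *Klf13* was highest with cytokines (75.8 and 81.2). As CPM of all UMIs *Klf13* was at 56.1 with cytokines in replicate 1, against 68.4 ± 9.70 untreated (mean ± SD). *Klf9* was at 66.6 there, against 85.0 ± 4.48 untreated, so these orders depend on the scaling. *Klf7* was highest with NMMA (64.9 and 79.2), and the conditions of *Klf3* and *Klf4* overlapped. In δ-cells *Klf7* was at 51.1 and 44.7 untreated and 119.6 and 153 with cytokines, and *Klf9* at 68.8 and 87.8 untreated and 7.97 and 52.6 with cytokines, where the cytokine sums hold 8 and 11 cells. *Klf4* in δ-cells ranged from 1.04 to 31.9 with no order by condition.

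Most cytokine-treated α-cells fell in a sub-cluster led by heat shock genes, 49 of 49 and 59 of 74. It held 6 of 94 and 9 of 102 untreated, 11 of 98 and 3 of 90 with cytokines and NMMA, and 2 of 52 and 23 of 108 with NMMA. It was named from an α-cell marker score of -0.049, the lowest score of the sub-clusters. In it 7 α-cell markers were detected, and none was among its leading genes. In CPM of all UMIs, *Klf6* was at 414 and 115 in this sub-cluster and 32.4 and 41.9 in the other α-cells untreated. With cytokines and NMMA *Klf6* was at 272 and 264 in the sub-cluster (11 and 3 cells) and 34.3 and 30.5 in the others. With cytokines it was at 188 and 130.4 in the sub-cluster, and the 15 other cells of replicate 2 were at 44.2, near the untreated level of such cells, from 15 UMIs. *Klf10* in these 15 cells was at 11.8, against 57.1 in the sub-cluster. Of *Klf2* UMIs the sub-cluster held 5 and 0 untreated, 0 and 1 with cytokines, and 2 and 8 with cytokines and NMMA. With NMMA alone it held 0 and 0. The other α-cells held 16 and 5 untreated, 19 and 2 with cytokines and NMMA, and 4 and 13 with NMMA. The 15 other cells with cytokines held 0. The lower *Klf2* and the higher *Klf6* and *Klf10* of cytokine-treated α-cells and their place in this sub-cluster cannot be told apart. Summed β-cell markers in α-cells were at 10630 to 28676 CPM untreated and 49083 to 51743 with cytokines. They were at 26798 to 55225 with cytokines and NMMA and 12462 to 80534 with NMMA, and their part was not tested. Summed δ-cell markers in α-cells were at 1817 to 2604 CPM untreated and 3831 to 4149 with cytokines. Summed α-cell markers there were at 165156 to 195114 untreated and 136955 to 217925 with cytokines. The part of δ-cells in the *Klf2* values of this class was not tested.

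The genes around the members were counted against the share of all genes called in β-cells with cytokines, 46.2% (23.8% as higher), and the median log2 change of all genes, 0.00. The other KLF genes gave 2 calls of 6 tested, both higher (median of the 6 0.50): *Klf5*, an inflammation-responsive activator, by 2.03 (SE 0.18, adjusted p = 4.8e-05) and *Klf11*, a close relative of *Klf10*, by 1.01 (SE 0.16, adjusted p = 0.00099). NMMA moved them in opposite directions against cytokines alone, *Klf5* by 1.04 (adjusted p = 0.0058) and *Klf11* by -0.93 (adjusted p = 0.0069), 2 of 6 where 19.4% of all genes were called. Of 5 tested Sp genes, whose products bind the same GC boxes, 2 were lower (median of the 5 -0.12): *Sp4* by -0.68 (adjusted p = 0.0084) and *Sp6* by -2.13 (adjusted p = 0.016). Among 6 corepressor genes that KLF proteins use, 2 were higher (*Ctbp2* 0.54 and *Sin3b* 0.50) and 2 lower (*Sin3a* -0.46 and *Hdac2* -0.48), with a median of -0.09.

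The kinase cascade through ERK5 and the MEF2 factors is known to turn on *Klf2* and *Klf4*. Of its 6 genes in β-cells 1 was higher with cytokines, *Mef2a* by 0.59 (adjusted p = 0.0082), and 1 lower, *Map2k5* by -0.46 (adjusted p = 0.040), with a median of 0.31, where 46.2% of all genes were called. In macrophages *Mef2c* was lower by -1.56 (adjusted p = 0.046), 1 of 3 tested where 4.62% of all genes were called, and in endothelial cells *Mef2c* was lower with cytokines and NMMA by -1.21 (adjusted p = 0.012), 1 of 6 tested where 6.64% of all genes were called, with 0 of 6 called for cytokines alone (6.33% of all genes). Of the genes that *Klf2* and *Klf4* control in endothelium, 0 of 5 tested were called with cytokines in endothelial cells and 1 of 3 in macrophages (*S1pr1* by -1.22, adjusted p = 0.036).

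Of 5 glucocorticoid response genes beside *Klf9* in β-cells, 1 was higher with cytokines (*Per1* by 1.17, adjusted p = 0.0029) and 2 lower (*Sgk1* by -1.15, adjusted p = 0.0018, and the receptor gene *Nr3c1* by -0.42, adjusted p = 0.027), with a median of 0.09, where 46.2% of all genes were called. With cytokines and NMMA, where *Klf9* was lowest, 1 of 5 was called, *Sgk1* by -1.42 (adjusted p = 0.0013), where 22.7% of all genes were called. Of 6 TGF-β pathway genes beside *Klf10*, 3 were higher with cytokines, the ligand *Tgfb1* by 1.86 (adjusted p = 0.026), the mediator *Smad2* by 0.78 (adjusted p = 0.0085) and the repressor *Skil* by 0.72 (adjusted p = 0.0022), and the receptor gene *Tgfbr1* was lower by -0.57 (adjusted p = 0.0066), with a median of 0.53, against 46.2% of all genes called and 23.8% higher. In endothelial cells 0 of 8 of these were called with cytokines, where 6.33% of all genes were called.

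*Klf4* and *Klf6* are often counted among immediate early genes, which preparing single cells can raise. Of 11 such genes in β-cells 3 were higher with cytokines, *Atf3* by 3.74, *Jun* by 1.22 and *Ier3* by 0.998, and 4 were lower, *Egr1* by -3.00, *Fos* by -2.80, *Fosb* by -2.25 and *Ier2* by -1.40. These are 7 of 11 where 46.2% of all genes were called. With cytokines and NMMA against cytokines 6 of 11 were higher, *Fos* by 2.92 and *Egr1* by 2.10 among them, where *Klf6* had -0.47 and *Klf4* 0.63 and 19.4% of all genes were called. In endothelial cells *Atf3* (2.42) and *Zfp36* (1.84) were higher with cytokines and *Dusp1* (-0.92) lower, 3 of 11 called where 6.33% of all genes were. The part of cell preparation in the values of *Klf4* and *Klf6* was not tested.

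Over the 47 sums of 6 classes and 8 libraries that held at least 10 cells, the genes most like each member in log2(CPM + 1) were found by Pearson's r among 8704 genes. The sums share libraries and differ in depth and hormone content, so these are descriptions. *Klf2* was most like *Arhgap31* (0.88), *Sh2b3* (0.88), *Crim1* (0.84), *Cd93* (0.84) and *Id3* (0.83), and *Klf3* like the endothelial genes *Erg* (0.88), *Sox18* (0.87) and *Emcn* (0.87). *Klf6* was most like *Mcl1*, *Sdcbp* and *Nras* (0.90 each). *Klf9* had the closest partners, *Tead1* (0.95), *Rbfox2* (0.93) and *Ryk* (0.93), and *Klf10* the least close, *Slu7* (0.64), *Skil* (0.63) and *Zfand5* (0.62). *Klf4* was most like *Dennd5b* (0.84), *Klf7* like *Sptbn1* (0.88) and *Klf13* like *Prkch* (0.87). Among the members *Klf4* and *Klf7* were the most alike (0.80), and *Klf6* and *Klf9* the least (-0.45).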

How the data were processed

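For each of 8 libraries the authors deposited a table of UMI counts, not normalized, from Cell Ranger on mm10 (submitters' processing notes, no versions given there). The labels name a v2 kit and the study's methods a v3 kit. The 30406 gene IDs listed in all libraries were used (597 with another symbol in the other replicate's list). After the study's filters, barcodes had 200 or more genes, no more than 5500 (replicate 1) or 6500 genes (replicate 2) and up to 10% of UMIs from mitochondria. Kept barcodes were clustered with scanpy 1.11.5 and leidenalg 0.10.2 (2000 variable genes, 30 components, 20 neighbours, resolution 1, Python 3.11.15) into 25 clusters, and those of α- and δ-cells were clustered again. A cluster took the name whose fixed markers scored highest. Scrublet marked 128 doublets (1.18%), which were left out only as an alternative.

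UMIs were summed per class and library (at least 10 cells) and tested with the robust quasi-likelihood F test of edgeR 4.0.16 (R 4.3.3) after filterByExpr and TMM scaling, with the 4 conditions of a class in 1 fit, and adjusted by Benjamini-Hochberg over all genes tested. A change was called at an adjusted p under 0.05. The levels of α- and δ-cells, which were not tested, include the δ-cell sum of 8 cells. Differences between classes were tested as interactions with a term for each library. The fits were tested on simulated counts. The depth of each sum limits its precision, and Poisson and binomial intervals cover counting error only. Named genes are the 8 members and, from each list, genes called in the comparison described. Members, lists and markers were chosen with earlier results of these data known. Replicate numbers pair the samples, since each replicate is 1 pool of islets divided over the conditions. In β-cells, deviations from the condition means of same-numbered libraries correlated with r of 0.658 to 0.750 (median 0.719) over 6 pairs of conditions.

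Alternatives were DESeq2 1.42.0, scaling by total UMIs, no filter on low counts, a minimum of 5 cells, doublets left out, at least 1000 genes per barcode, resolution 2, each library left out and the replicate block. 3 were added after seeing the data: heat shock-led β-cells left out, cells with endothelial markers left out for *Klf2*, and hormone genes left out of totals. The β-cell result for the genes that *Klf2* and *Klf4* control in endothelium, and 1 of the motifs searched, are not reported here.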

Additional observations from a re-analysis of the deposited data

Results flagged for a closer look

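For 2 members the cytokine change differed from that in β-cells in 1 or more classes, 3 differences in all, by a test of the difference itself (edgeR, adjusted over all genes). For *Klf6* it was smaller in macrophages by -1.28 (SE 0.31, adjusted p = 0.0016) and in mesenchymal cells by -2.41 (SE 0.45, adjusted p = 3.2e-05), and for *Klf3* it was smaller in endothelial cells by -0.96 (SE 0.29, adjusted p = 0.022), all on the log2 scale and from 2 libraries per condition. With 2 libraries in a group no library could be tested as standing apart from its group.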

How the results depend on the processing

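In no alternative did a called change of a member turn its direction. *Klf3*, *Klf6* and *Klf10* in β-cells and *Klf6* in endothelial cells were called in every alternative run for cytokines against untreated.

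The counts of called members depended on the setting as follows. The main test called 4 members in β-cells with cytokines (46.2% of all genes). It called 2 with cytokines and NMMA (22.7%) and 1 for the latter against cytokines (19.4%). In macrophages it called 1 with cytokines (4.62%) and 1 with cytokines and NMMA (6.46%). Differences from β-cells were 1 each for macrophages (6.04%), endothelial (6.29%) and mesenchymal cells (1.68%). Leaving out 1 library leaves 1 in its group, and some of these calls were then lost, as given above. For the differences between classes, most such fits also called fewer of all genes. For β-cells with cytokines and NMMA a minimum of 1000 genes gave 1 (15.9% of all genes called). Against cytokines this minimum gave 0 (9.13%), DESeq2 2 (16.2%), total scaling 2 (21.7%), no filter on low counts 5 (15.7%) and heat shock-led β-cells left out 3 (21.6%). For macrophages with cytokines and NMMA, DESeq2, total scaling, no filter and doublets left out gave 0 each (3.92%, 6.23%, 3.87% and 6.47% of all genes). Differences from β-cells were 0 with DESeq2 for macrophages (1.83% of all genes) and endothelial cells (4.7%), and for endothelial cells 2 with total scaling (7.34%) and 3 without heat shock-led β-cells (6.74%, *Klf2* 2.61, *Klf3* -0.99 and *Klf6* -0.83).

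The replicate block gave 7 calls in β-cells with cytokines and NMMA, 4 for these against cytokines and 1 with NMMA alone, and 2 in endothelial cells with cytokines and 2 with cytokines and NMMA. It changed no other call. Scaling by total UMIs moved the median log2 change of all genes with cytokines to -0.22 in endothelial, -0.12 in macrophage and -0.21 in mesenchymal sums, and with cytokines and NMMA to -0.26, -0.12 and -0.16. The share of higher calls with cytokines moved from 72.4% to 55.7% in endothelial cells, and with cytokines and NMMA from 75.7% to 54.7%. Depth limits *Klf2* outside endothelial cells, with at most 41 UMIs in a sum, and *Klf4* and *Klf9* in macrophages, with at most 2 and 5.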
